A study of Homo sapiens with 12 samples.

Results

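A set of 9 genes that carry cystine into the cell and make, reuse or break down glutathione were examined in RNA of RPE1, a human cell line derived from retinal pigment epithelium and immortalised with telomerase. They were SLC7A11, GCLC, GCLM, GSS, GSR, CHAC1, CHAC2, GGCT and GSTP1, found by symbol in the deposited count table, each with 1 identifier. They are 9 of 22498 identifiers, and all 9 are among the 13802 genes with enough counts to be tested. Each of 3 groups held 4 libraries of wild-type cells. DMSO was given to control cells. Doxorubicin at 50 nM, a topoisomerase II poison, was given to another group, and the last group had the same dose together with ferrostatin-1 (5 µM), which traps radicals and so inhibits lipid peroxidation. Cells were treated from plating for 72 h, and ferrostatin-1 was renewed at 48 h. No group received ferrostatin-1 alone, and the labels do not say whether the 4 replicates were separate cultures, so p-values measure the spread between these libraries, which may be technical.

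Glutathione is the main thiol antioxidant of the cell, and the retinal pigment epithelium, exposed to light and oxygen, depends on it. The antiporter formed by SLC7A11 and SLC3A2 exchanges glutamate for extracellular cystine, which is reduced to cysteine. Glutamate cysteine ligase, made of a catalytic subunit (GCLC) and a modifier subunit (GCLM), joins cysteine to glutamate, and glutathione synthetase (GSS) adds glycine. The peroxidase GPX4 spends glutathione to reduce lipid peroxides, so loss of cystine import can end in ferroptosis, an iron-dependent cell death that ferrostatin-1 blocks. Glutathione reductase (GSR) restores the oxidised form with NADPH, GSTP1 couples glutathione to electrophiles, CHAC1 and CHAC2 cleave glutathione in the cytosol, and GGCT releases 5-oxoproline from gamma-glutamyl amino acids.

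Upstream sequence was read from RefSeq (GRCh38.p14), which gave a start for 5 of the 9 genes, GCLC, GCLM, GSTP1, CHAC1 and CHAC2. The 250 bases before the start are shown for both subunits of the ligase, which rose together after doxorubicin, and for CHAC2, which fell, 5′ to 3′ on the gene's strand. Capitals mark a match to TGACNNNGC, the core of the antioxidant response element bound by NRF2, searched on both strands.
GCLM (chr1:93909431-93909680, minus strand): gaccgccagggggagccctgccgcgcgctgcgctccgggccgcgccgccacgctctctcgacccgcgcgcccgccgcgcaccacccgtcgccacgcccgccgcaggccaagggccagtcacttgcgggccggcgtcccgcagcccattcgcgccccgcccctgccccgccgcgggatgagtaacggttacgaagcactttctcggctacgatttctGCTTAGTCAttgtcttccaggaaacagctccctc
GCLC (chr6:53545102-53545351, minus strand): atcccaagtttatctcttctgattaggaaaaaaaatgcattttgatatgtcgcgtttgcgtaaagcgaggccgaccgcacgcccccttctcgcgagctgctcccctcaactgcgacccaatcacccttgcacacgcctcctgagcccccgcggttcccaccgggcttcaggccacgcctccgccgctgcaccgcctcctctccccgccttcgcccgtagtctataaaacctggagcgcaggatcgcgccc
CHAC2 (chr2:53767533-53767782, plus strand): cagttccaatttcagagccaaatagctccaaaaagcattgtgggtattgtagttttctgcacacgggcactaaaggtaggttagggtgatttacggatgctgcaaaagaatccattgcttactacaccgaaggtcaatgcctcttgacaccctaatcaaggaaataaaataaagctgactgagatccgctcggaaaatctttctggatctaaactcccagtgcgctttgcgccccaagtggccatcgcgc
GSTP1 site with 10 bases on each side (chr11:67583736-67583764, plus strand): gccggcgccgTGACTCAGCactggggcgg

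The match in GCLM lay 34 to 26 bases before the start, as the reverse complement, and that in GSTP1 lay 66 to 58 bases before it. Of all 35116 such windows, 10.9% held this motif. TGATGNAAT, the core of the amino acid response element bound by ATF4, was in 0.888% of windows and in none of the 5, CHAC1 included. GC content was 72.4% for GCLM, 60.8% for GCLC, 74.8% for GSTP1, 64.8% for CHAC1 and 46.0% for CHAC2. By GENCODE 29, 26 bases of the GCLM window and 28 of the GCLC window are annotated as untranslated exon. The same holds for 217 of the 250 bases for GSTP1 and for all 250 for CHAC1. A match is a string of letters and not a bound site, and its absence covers this window only.

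Totals ran from 17523920 to 24879198 counts per library, and levels are counts scaled to a common library size (CPM) with TMM factors, as mean ± SD with n = 4. CPM are shares of each library, and fewer cells of a kind and less RNA per cell cannot be told apart. Control replicate 1 stood apart, its counts giving chi-square values of 8.26 to 14.2 per degree of freedom against the other controls, where these gave 3.73 to 5.02 among themselves. Pairs of doxorubicin libraries gave 3.94 to 7.98, and pairs with both compounds 6.72 to 9.53. Log2 CPM of control replicate 1 correlated with the other controls at r = 0.978 to 0.980, and those among themselves at 0.980 to 0.981. Of 11 retinal pigment epithelium markers, 7 were tested, with MITF at 45.0 to 51.8 CPM by group. BEST1, PMEL and SERPINF1 were tested but low, at 16 to 37, 5 to 14 and 1 to 14 counts per library. No library held more than 5 counts of RLBP1, TYR or TYRP1, and RPE65 had no entry under its symbol among the deposited counts. Of 9 markers of immune, endothelial, neuronal and other epithelial cells, 3 were tested (CD68, MAP2 and TUBB3), and PTPRC, PECAM1, VWF, EPCAM and CDH1 had at most 12 counts. CD3E had no entry under its symbol either. The summed level of these 9 was 491 to 554 CPM in control, 595 to 627 with doxorubicin and 704 to 755 with both compounds, most of it TUBB3, and that of the 11 was 613 to 705, 1141 to 1185 and 1133 to 1242 CPM. Most of the latter was KRT8 (means of 340.2, 614 and 621 CPM) and KRT18 (257, 488 and 509 CPM), which other epithelia also express, while OTX2 went from 17.6 to 11.0 and 11.4 CPM. Their part in the results was not tested.

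The comparison of doxorubicin with control asked what 72 h of the drug did to these transcripts. The importer, both ligase subunits and the synthetase rose by 1.24 to 1.58-fold, GSTP1 and CHAC1 also rose, and GSR, CHAC2 and GGCT fell. All 9 genes were called by edgeR's quasi-likelihood test at an adjusted p below 0.05, where 64.0% of all tested genes were, and 67.2% of all genes had an unadjusted p below 0.05. Of the 9, 6 were higher (32.2% of all genes) and 3 lower (31.8%), and in all 9 the 4 doxorubicin libraries lay wholly on one side of the 4 controls, as in 58.7% of all genes. The median log2 fold change was 0.31 for the 9 and -0.01 for all genes. With libraries scaled by their totals alone, the median of all genes moved to -0.15, 36.1% of calls were higher where the main scaling gave 50.3%, and 7 of the 9 were called. GCLM, the middle of the 9 under both scalings, went from 0.31 to 0.16.

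**Figure D1:**
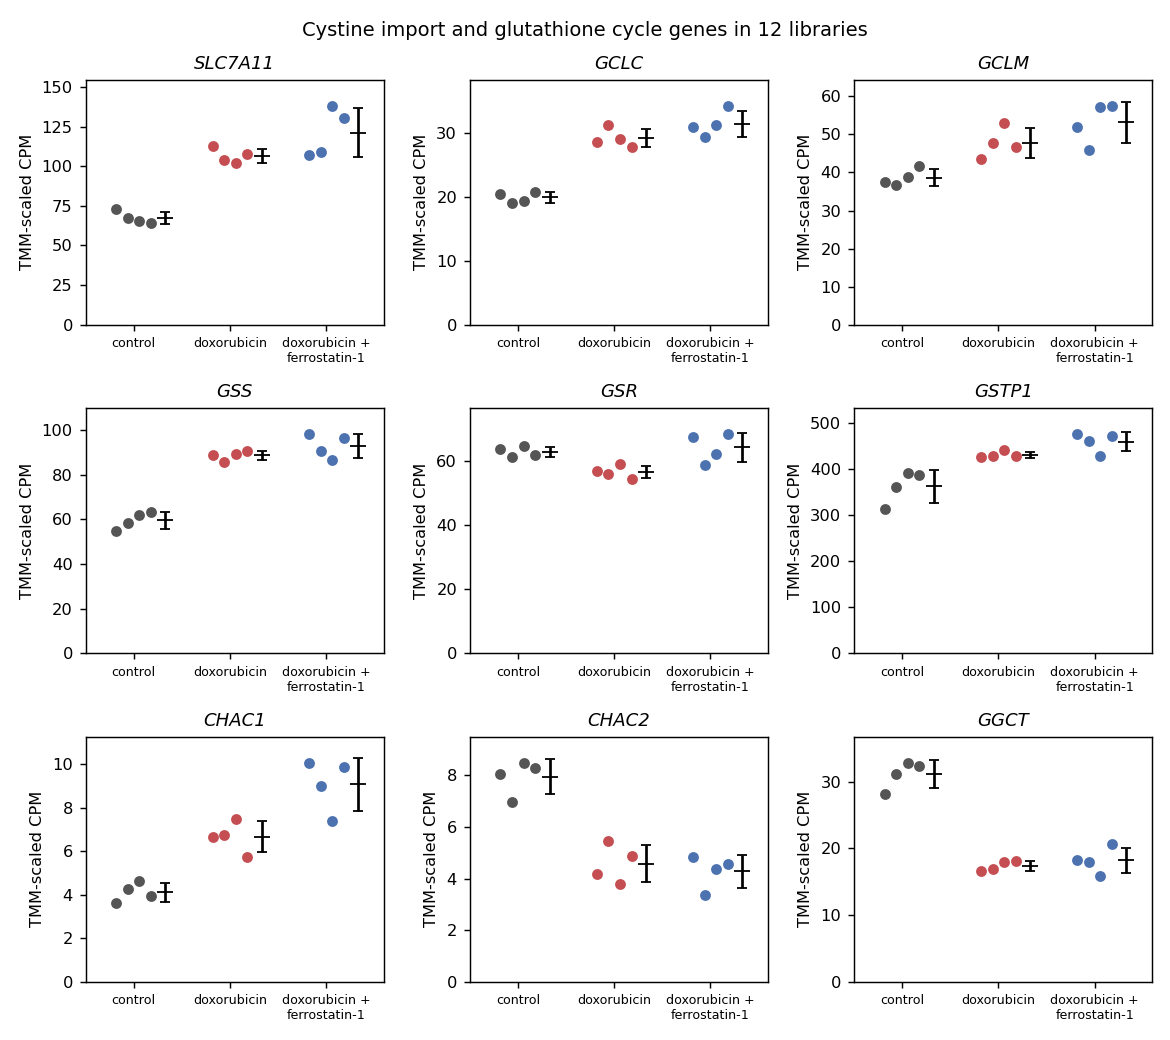
TMM-scaled CPM (vertical axis, from 0) of each gene in the 12 libraries, with dots for libraries 1 to 4 of a group from left to right and a bar for the mean ± SD. Control dots sit below every treated dot for SLC7A11, GCLC, GCLM, GSS, GSTP1 and CHAC1, and above them for CHAC2 and GGCT.

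Transcripts of the cystine importer rose. SLC7A11 stood at 73.0, 67.0, 65.7 and 63.9 CPM in the 4 control libraries, 113, 104, 102 and 107 CPM with doxorubicin, and 107, 109, 138 and 130.4 CPM with both compounds. SLC7A11 (ENSG00000151012.13, chromosome 4 from 138164097 to 138242349, GRCh38, GENCODE 29) encodes the transport subunit xCT. All treated libraries lay above all controls, while 2 of the 4 with both compounds lay within the doxorubicin range and 2 above it. The rise with doxorubicin was 0.66 ± 0.077 on the log2 scale (± standard error, adjusted p = 2.81e-06 by edgeR). SLC3A2 stood at 159, 188, 192 and 191 CPM in the 4 control libraries, 295, 302, 292 and 306 CPM with doxorubicin, and 228, 228, 192 and 239 CPM with both compounds. SLC3A2 is the heavy chain that holds xCT at the membrane and serves other transporters, and it rose by 0.71 ± 0.069 with doxorubicin (adjusted p = 3.71e-07 by edgeR). An antisense gene, SLC7A11-AS1, overlaps 865 bases of SLC7A11 exons, and no source used here says that strand was recorded, so reads of the 2 genes may not have been told apart.

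Synthesis genes rose as well, the catalytic subunit more than the modifier. GCLC stood at 20.4, 19.0, 19.4 and 20.8 CPM in the 4 control libraries, 28.5, 31.1, 29.1 and 27.8 CPM with doxorubicin, and 30.8, 29.3, 31.2 and 34.2 CPM with both compounds. All 8 treated libraries lay above the 4 controls, and the treated groups overlapped. GCLC (ENSG00000001084.13, chromosome 6 from 53497341 to 53616970) rose by 0.55 ± 0.06 with doxorubicin (adjusted p = 1.42e-06 by edgeR). GCLM stood at 37.5, 36.7, 38.7 and 41.6 CPM in the 4 control libraries, 43.5, 47.8, 53.0 and 46.8 CPM with doxorubicin, and 52.0, 45.9, 57.2 and 57.5 CPM with both compounds. Controls and treated libraries did not overlap here either, but the gap was narrow, from 41.6 to 43.5 CPM. GCLM (ENSG00000023909.10, chromosome 1 from 93885205 to 93909456) rose by 0.31 ± 0.077 (adjusted p = 0.00287), and by 0.16 with library totals alone, where it was not called (adjusted p = 0.0732). GSS stood at 54.9, 58.3, 61.8 and 63.3 CPM in the 4 control libraries, 88.8, 85.7, 89.4 and 90.4 CPM with doxorubicin, and 97.9, 90.6, 86.5 and 96.3 CPM with both compounds. Levels of GSS (ENSG00000100983.12, chromosome 20 from 34928433 to 34956027) ranged more widely among controls than among doxorubicin libraries, and the rise was 0.57 ± 0.053 (adjusted p = 2.38e-07). In GCLC, 529 exonic bases are shared with a non-coding gene on the same strand and 7 with an antisense gene.

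Glutathione reductase was lower and the transferase higher with doxorubicin. GSR stood at 63.8, 61.3, 64.7 and 61.9 CPM in the 4 control libraries, 57.0, 56.0, 59.0 and 54.5 CPM with doxorubicin, and 67.6, 58.7, 62.3 and 68.3 CPM with both compounds. GSR (ENSG00000104687.14, chromosome 8 from 30678061 to 30727999) was lower in every doxorubicin library than in any control, with a log2 fold change of -0.15 ± 0.052 (adjusted p = 0.0184). With library totals alone it was -0.30 (adjusted p = 0.000173). Without doxorubicin replicate 4 it was -0.13 and not called (adjusted p = 0.0534). GSTP1 stood at 313, 362, 391 and 387 CPM in the 4 control libraries, 426, 428, 442 and 429 CPM with doxorubicin, and 476, 462, 429.8 and 473 CPM with both compounds. Control replicate 1 was the lowest of all 12 libraries for GSTP1 (ENSG00000084207.18, chromosome 11 from 67583595 to 67586656), and the doxorubicin libraries lay close together above all controls. The rise was 0.25 ± 0.06 (adjusted p = 0.00216), and 0.10 with library totals alone, where it was not called (adjusted p = 0.124). Without control replicate 1 it was 0.18 and called.

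Breakdown genes parted. CHAC1 stood at 3.62, 4.25, 4.62 and 3.95 CPM in the 4 control libraries, 6.66, 6.73, 7.51 and 5.75 CPM with doxorubicin, and 10.1, 9.01, 7.39 and 9.86 CPM with both compounds. CHAC1 (ENSG00000128965.13, chromosome 15 from 40952962 to 40956519), known as a target of ATF4 in the response to amino acid shortage and ER stress, rose by 0.70 ± 0.13 (adjusted p = 0.000284). CHAC2 stood at 8.04, 6.96, 8.48 and 8.29 CPM in the 4 control libraries, 4.18, 5.44, 3.81 and 4.88 CPM with doxorubicin, and 4.84, 3.38, 4.36 and 4.57 CPM with both compounds. CHAC2 (ENSG00000143942.5, chromosome 2 from 53767792 to 53775196), a related enzyme with slower turnover, fell by 0.79 ± 0.14 (adjusted p = 0.000191), and no treated library reached the lowest control. Both rest on few reads, 73 to 243 counts per library for CHAC1 and 66 to 178 for CHAC2, so counting error alone is 6.42% to 11.7% and 7.5% to 12.3% of a value. GGCT stood at 28.2, 31.2, 32.8 and 32.4 CPM in the 4 control libraries, 16.5, 17.0, 17.9 and 18.05 CPM with doxorubicin, and 18.2, 17.96, 15.9 and 20.6 CPM with both compounds. GGCT (ENSG00000006625.18, chromosome 7 from 30496621 to 30504844) fell to 0.56 of its control level (log2 -0.84 ± 0.077, adjusted p = 1.79e-07), with all 8 treated libraries below the controls. A neighbouring protein-coding gene on its strand shares 441 exonic bases with it and had 0 to 12 counts per library.

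**Figure D2:**
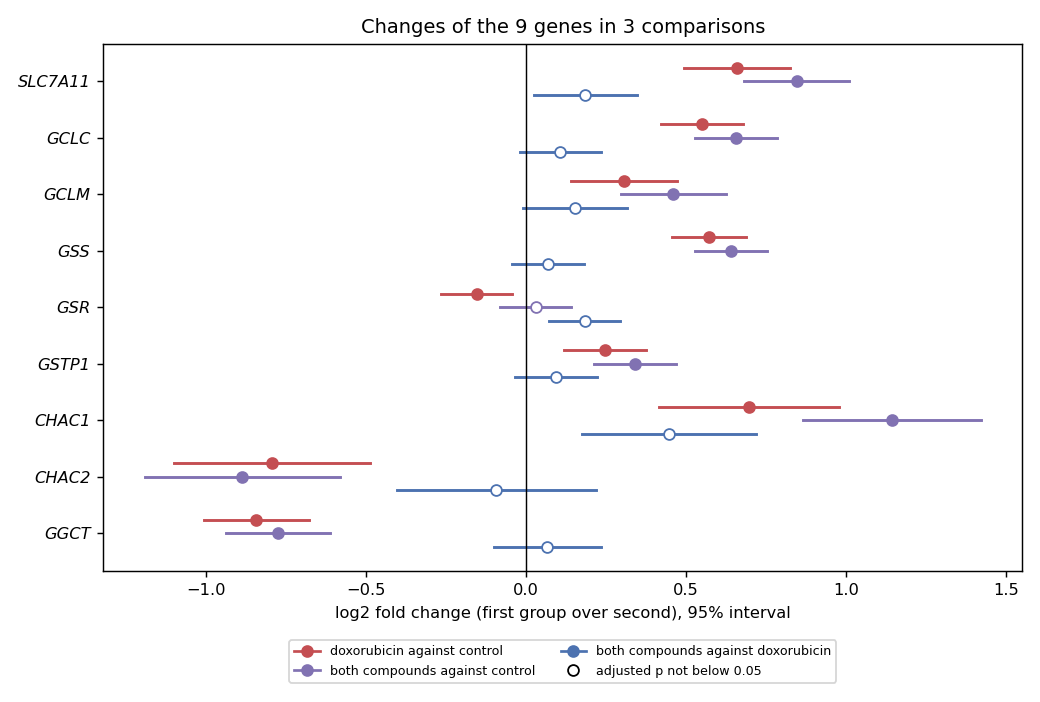
Log2 fold change (horizontal axis) of each gene in 3 comparisons, with lines for the 95% interval and open symbols where the adjusted p was not below 0.05. With doxorubicin SLC7A11, GCLC, GSS and CHAC1 lay between 0.55 and 0.70 and CHAC2 and GGCT between -0.84 and -0.79, while open symbols mark all 9 genes for both compounds against doxorubicin.

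Adding ferrostatin-1 to doxorubicin was compared with the drug alone to see whether the added compound altered these transcripts. None of the 9 genes passed (0 of 9 by edgeR, where 5.01% of all genes were called, 2.16% higher and 2.85% lower), 3 had an unadjusted p below 0.05 (15.5% of all genes), and DESeq2 called 2. The 3 were CHAC1, GSR and SLC7A11. CHAC1 was 1.36 times its doxorubicin level (95% interval 1.13 to 1.64, edgeR adjusted p = 0.06), at 6.66 ± 0.72 and 9.08 ± 1.22 CPM. It was called by DESeq2 (adjusted p = 0.0303), with every symbol of the table summed (0.0342) and without the library with both compounds numbered 3 (0.0256), and its adjusted p ran up to 0.187 over the other alternatives. GSR was 1.14 times its doxorubicin level (interval 1.05 to 1.23, edgeR adjusted p = 0.06), at 56.6 ± 1.91 and 64.2 ± 4.54 CPM. It was called by DESeq2 (0.0201), with RLE size factors (0.0488) and without the library with both compounds numbered 2 (0.0173), and its adjusted p ran up to 0.187 elsewhere. SLC7A11 was 1.14 times its doxorubicin level (interval 1.02 to 1.27, edgeR adjusted p = 0.235), and its log2 fold change of 0.19 was 0.12 without the library with both compounds numbered 3.

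For the other 6 genes the interval of the ratio to doxorubicin spanned 1. It was 0.99 to 1.18 for GCLC, 0.99 to 1.24 for GCLM and 0.97 to 1.13 for GSS. It was 0.98 to 1.17 for GSTP1, 0.76 to 1.16 for CHAC2 and 0.93 to 1.18 for GGCT. The data do not separate values within these intervals from no change. The partner subunit SLC3A2, outside the 9, fell from 299 ± 6.31 to 222 ± 20.4 CPM (-0.43 ± 0.068, edgeR adjusted p = 0.00145). Its 4 libraries with both compounds lay below all 4 with doxorubicin. In this comparison the groups lay apart, in either direction, in 10.9% of all genes and in 0 of the 9.

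Against control, cells with both compounds showed 6 genes higher (32.0% of all genes) and 2 lower (32.3%), and GSR did not pass (64.3% of all genes were called in either direction, and 67.2% had an unadjusted p below 0.05). This comparison shares its controls with the first and its treated libraries with the second. Groups lay apart in 8 of the 9 (57.7% of all genes), and the median was 0.46 for the 9 and -0.02 for all genes. With library totals alone the latter was -0.17 and 35.02% of calls were higher, against 49.8%. GCLM, again the middle of the 9 under both scalings, went from 0.46 to 0.31. CHAC1 had the largest rise, from 4.11 ± 0.427 to 9.08 ± 1.22 CPM (log2 1.14 ± 0.13, edgeR adjusted p = 1.88e-06). SLC7A11 rose by 0.85 ± 0.077 (adjusted p = 1.69e-07), GCLC by 0.66 ± 0.06 and GCLM by 0.46 ± 0.076. GSS rose by 0.64 ± 0.053 and GSTP1 by 0.34 ± 0.06, while CHAC2 and GGCT had log2 fold changes of -0.89 ± 0.14 and -0.77 ± 0.076. GSR stood at 63.0 ± 1.59 and 64.2 ± 4.54 CPM (log2 0.03 ± 0.051, adjusted p = 0.627, and -0.12 with library totals alone).

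Ratios of 2 genes within a library do not depend on how libraries are scaled, and 3 were compared between groups by a two-sided exact permutation test, with p-values adjusted over the 9 tests. The smallest p that 4 against 4 allows is 0.0286. GCLM counts were 1.84 to 2.00 times GCLC counts in control, 1.53 to 1.82 times with doxorubicin and 1.57 to 1.83 times with both compounds. The ratio of modifier to catalytic subunit was thus lower in every treated library than in any control (exact p = 0.0286, adjusted 0.0429, for doxorubicin and for both compounds against control), and it overlapped between the treated groups (exact p = 0.429, adjusted 0.482).

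SLC7A11 counts were 0.335 to 0.460 of SLC3A2 counts in control, 0.344 to 0.381 with doxorubicin and 0.470 to 0.717 with both compounds. The 2 antiporter subunits kept overlapping ratios after doxorubicin (exact p = 0.857, adjusted 0.857). With ferrostatin-1 added the ratio rose 1.53-fold over doxorubicin and 1.47-fold over control (exact p = 0.0286, adjusted 0.0429, for each), and control replicate 1 and the library with both compounds numbered 3 were the highest of their groups. Between the treated groups, the log2 fold change was -0.43 for SLC3A2 (edgeR adjusted p = 0.00145) and 0.19 for SLC7A11, which was not called (0.235). CHAC1 counts were 0.451 to 0.611 of CHAC2 counts in control, 1.18 to 1.97 times with doxorubicin and 1.69 to 2.67 times with both compounds. The order of the 2 enzymes' counts was therefore inverted in all 8 treated libraries (2.83-fold for doxorubicin and 4.10-fold for both compounds, exact p = 0.0286, adjusted 0.0429, for each). Counts are not corrected for gene length. With doxorubicin, CHAC1 and CHAC2 stood at 3.24 ± 0.350 and 3.46 ± 0.551 CPM per kb of exon, with overlapping ranges. Adding ferrostatin-1 gave 1.45 times the doxorubicin ratio of counts, with overlapping groups (exact p = 0.0571, adjusted 0.0735).

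**Figure D3:**
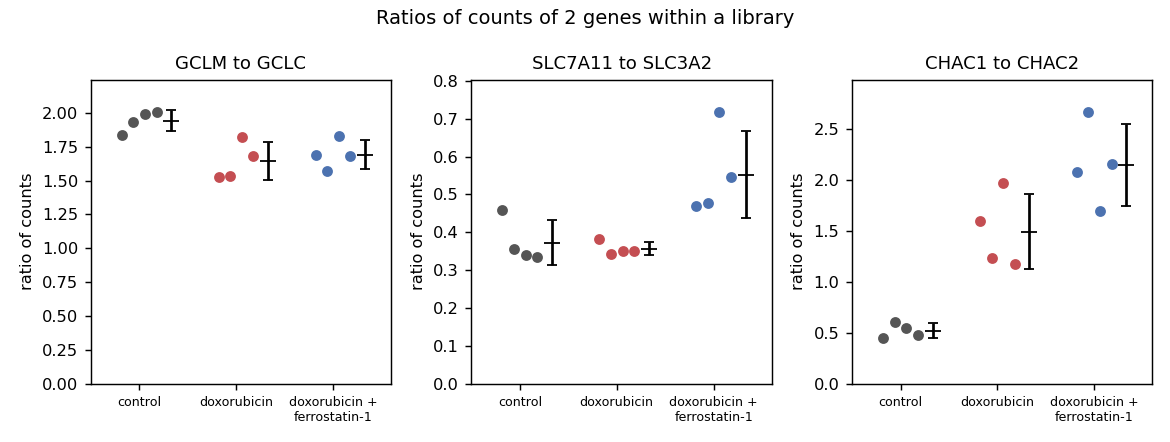
Ratio of counts (vertical axis, from 0) of GCLM to GCLC, SLC7A11 to SLC3A2 and CHAC1 to CHAC2 in each library, with a bar for the mean ± SD. The control ratios of CHAC1 to CHAC2 sit between 0.451 and 0.611, below all treated ratios, and the ratio of SLC7A11 to SLC3A2 lies between 0.470 and 0.717 with both compounds, above all others.

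Compared per kb of merged GENCODE 29 exons, GSTP1 was the most abundant of the 9 in every group, at 190.1 ± 18.7 CPM per kb in control. Next in control came GGCT at 19.5 ± 1.31, GSR at 16.7 ± 0.422, GSS at 9.65 ± 0.613, GCLM at 7.13 ± 0.400 and SLC7A11 at 6.99 ± 0.407 CPM per kb. CHAC2 at 6.01 ± 0.516, GCLC at 2.30 ± 0.0954 and CHAC1 at 2.00 ± 0.207 CPM per kb closed the order. Only GCLM with SLC7A11 and GCLC with CHAC1 overlapped as neighbours. With doxorubicin GGCT, at 10.9 ± 0.456, lay below GSR and GSS and overlapped with SLC7A11 at 11.0 ± 0.476, and the ranges of CHAC2, GCLC and CHAC1 overlapped. With both compounds CHAC1 stood at 4.41 ± 0.591 and CHAC2 at 3.25 ± 0.484 CPM per kb, the range of GCLC overlapped with each, and neighbours from GSR down to GCLM overlapped too. Merged exons count every annotated transcript, so levels of genes with long rarely used exons are understated.

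**Figure D4:**
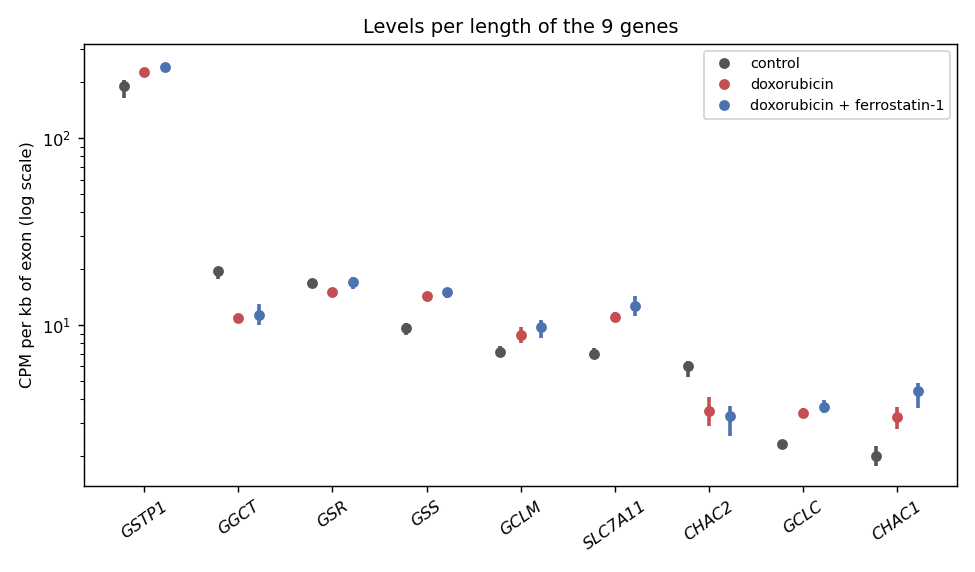
CPM per kb of merged exon (log scale) of the 9 genes, ordered by control level, with dots for group means and lines from the lowest to the highest of 4 libraries. GSTP1 at 190.1 in control lies far above the rest, and CHAC2 and GGCT lie below control in both treated groups.

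Other genes around glutathione moved in both directions after doxorubicin. Of 110 genes in 7 lists, 84 were tested, 37 rose, 24 fell and 23 did not pass, with a median log2 fold change of 0.15, and 4 rose and 4 fell when ferrostatin-1 was added. These counts and those of each list stand beside 32.2% of all tested genes higher and 31.8% lower with doxorubicin, and 2.16% and 2.85% with ferrostatin-1 added, and nothing particular to a list is read from them. Of 12 peroxidases, glutaredoxins and related reductases, 8 rose and 4 fell, with a median of 0.43. TXNRD1, a thioredoxin reductase, rose from 661 ± 17.4 to 1604 ± 68.1 CPM, GLRX, which removes glutathione from proteins, from 16.1 ± 0.744 to 34.6 ± 1.54 CPM, and GPX3, a secreted peroxidase, from 9.72 ± 0.349 to 19.0 ± 2.17 CPM. GLRX rose again when ferrostatin-1 was added, to 49.1 ± 0.436 CPM (log2 0.51 ± 0.047, edgeR adjusted p = 1.01e-05), the 1 gene of this list that was called.

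Of 15 tested glutathione transferases outside the 9, 8 rose, 1 fell and 6 did not pass, with a median of 0.43, and none was called with ferrostatin-1 (0 by edgeR, 2 with an unadjusted p below 0.05). GSTM2 rose from 10.7 ± 0.667 to 21.5 ± 1.14 CPM and the microsomal MGST1 from 144 ± 7.48 to 219 ± 13.7 CPM, while GSTCD, which carries a transferase-like domain, fell from 25.6 ± 1.93 to 10.2 ± 0.274 CPM. Of 12 cysteine supply genes, 5 rose, 3 fell and 4 did not pass. The neutral amino acid transporters SLC1A4 and SLC1A5 fell from 23.5 ± 1.03 to 13.2 ± 0.698 CPM and from 175 ± 7.82 to 109 ± 1.21 CPM, and SLC33A1, an acetyl-CoA transporter, rose from 36.9 ± 1.20 to 56.6 ± 2.84 CPM. With ferrostatin-1 added, SLC1A4 rose to 15.4 ± 0.381 CPM (adjusted p = 0.0469) and SLC3A2 fell. Against control, MFSD12, which brings cysteine into lysosomes and melanosomes, rose from 67.6 ± 4.10 to 109 ± 8.74 CPM with both compounds (adjusted p = 1.34e-07).

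Of 6 tested genes of the gamma-glutamyl cycle outside the 9, 2 rose, 2 fell and 2 did not pass. GLUL, glutamine synthetase, fell from 93.9 ± 3.64 to 41.1 ± 1.31 CPM, and GGT7, a gamma-glutamyltransferase family member, rose from 14.1 ± 0.644 to 27.3 ± 1.91 CPM. ANPEP, an aminopeptidase that splits cysteinylglycine, fell from 2.81 ± 0.597 to 1.34 ± 0.192 CPM when ferrostatin-1 was added (log2 -1.06 ± 0.2, adjusted p = 0.00549). Of 11 export and organelle import genes, 5 rose, 4 fell and 2 did not pass. SLC25A40, a carrier related to the mitochondrial glutathione importer, fell from 27.3 ± 1.87 to 10.6 ± 0.47 CPM, SLC25A10, the dicarboxylate carrier, fell from 72.4 ± 5.08 to 34.4 ± 1.55 CPM, and ABCC10 rose from 29.6 ± 0.67 to 45.6 ± 3.71 CPM. ABCC3, an exporter of conjugates, rose from 7.01 ± 0.673 to 10.7 ± 1.44 CPM with ferrostatin-1 added (adjusted p = 0.00618).

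Of 10 glutathione-dependent detoxification enzymes, 2 were higher, 5 lower and 3 not called, and none was called with ferrostatin-1 (0 by edgeR, 1 with an unadjusted p below 0.05). GLO1, which clears methylglyoxal, fell from 132 ± 1.72 to 103 ± 9.28 CPM, its partner HAGH rose from 30.1 ± 4.15 to 41.4 ± 2.76 CPM, and LANCL2, a glutathione-binding protein, fell from 28.0 ± 1.06 to 21.1 ± 0.531 CPM. Among 18 transcription and stress regulators known to act on these genes, 7 rose, 5 fell and 6 did not pass. MAFK, a small MAF partner of NRF2, rose from 52.5 ± 2.40 to 99.2 ± 3.73 CPM, and NFE2L1, a relative of NRF2, from 328 ± 5.95 to 482 ± 9.82 CPM. NFE2L2, which encodes NRF2, stood at 88.5 ± 4.32 CPM in control, 75.5 ± 6.11 with doxorubicin and 63.7 ± 3.74 with both compounds. It fell in both steps (adjusted p = 0.00447 and 0.0334). With ferrostatin-1 added MAFF fell and MAFK rose as well, to 15.04 ± 0.954 and 115 ± 6.78 CPM (adjusted p = 0.0163 and 0.025).

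With both compounds against control, 40 of the 84 genes rose, 21 fell and 23 did not pass. Of all tested genes, 32.0% were higher and 32.3% lower in this comparison. Nothing particular to the lists is read from these counts. PRDX6, a peroxidase that uses glutathione, rose from 135 ± 8.56 to 221 ± 12.4 CPM, the transferase GSTK1 from 35.3 ± 3.14 to 57.9 ± 3.41 CPM and the regulator ATF5 from 39.0 ± 1.57 to 60.7 ± 2.87 CPM, while LANCL1, a relative of LANCL2, fell from 109 ± 6.62 to 84.4 ± 6.87 CPM.

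Of the genes named in these lists for doxorubicin against control, HAGH had the largest adjusted p (0.00039 by edgeR) after NFE2L2.

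**Figure D5:**
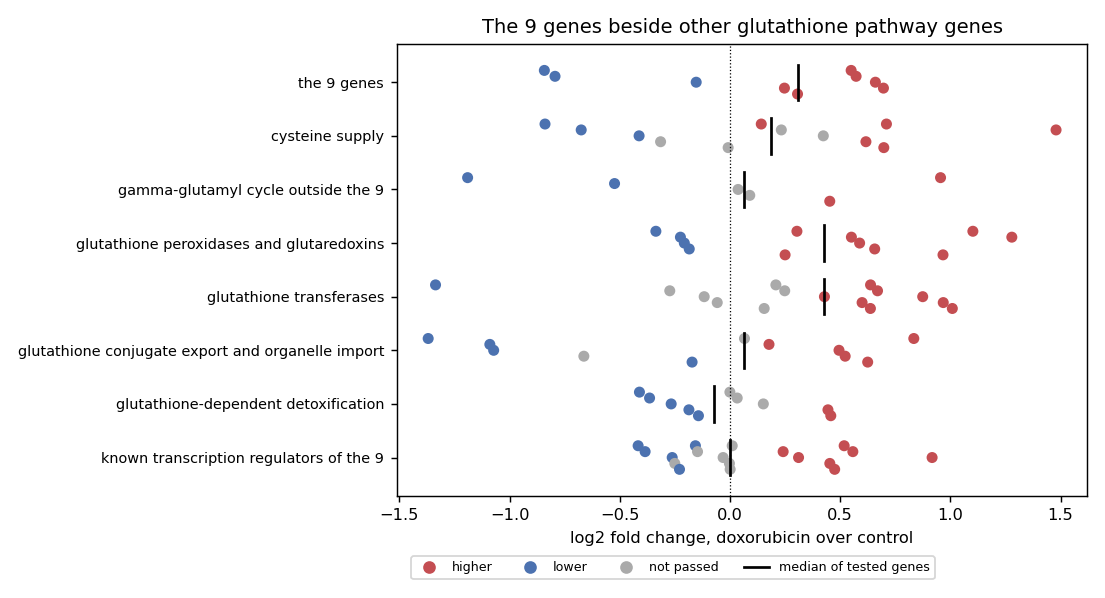
Log2 fold change of doxorubicin over control (horizontal axis) for the 9 genes and 7 lists of related genes, with 1 dot per tested gene, coloured by its call, and a bar for the list's median. The 9 genes have a median of 0.31 and peroxidases and transferases each 0.43.

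Among 12414 other protein-coding genes, SCN9A (Pearson r = 0.991) and GNG12 (0.988) were among the 3 whose log2 CPM followed SLC7A11 most closely over the 12 libraries. For GCLC the 3 were SLC31A1 (0.99), a copper importer, DRAM1 (0.988) and PGRMC2 (0.987), and for GCLM they were ANXA7 (0.978), ACTR10 (0.968) and RFK (0.964), riboflavin kinase. These values describe 12 points in 3 groups that share library scaling. DRAM1 went from 26.7 ± 0.967 CPM in control to 85.4 ± 6.10 with doxorubicin and 103 ± 8.06 with both compounds. A side column of the deposited table lists 71 symbols without a stated purpose, and 4 of the 9 are in it, SLC7A11, GCLC, GCLM and GSS.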

How the data were processed

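RNA of 12 RPE1 libraries was sequenced from both ends after a kit that, per the labels' protocols, is not described as marking the strand. The authors deposited whole-number counts per gene identifier, and the values sum to a different total in each library. Per the submitters' processing notes, Salmon, DESeq2 and GRCh38 were used, without versions or roles, and how estimated counts became whole numbers is not given in the sources used here. Count columns name a group and a number from 1 to 4, which pairs nothing in the labels, and 0 columns lacked a group. Residuals of same-numbered libraries correlated at r = -0.0954 to 0.0534, so no block was used.

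Counts of identifiers sharing a symbol were summed for the listed genes. Genes were kept by filterByExpr (minimum count 10, minimum total 15), scaled by TMM and fitted with edgeR 4.0.16 in R 4.3.3, with 1 mean per group over all 12 libraries. P-values are two-sided with Benjamini-Hochberg adjustment over 13802 genes. Adjusted p-values come from this fit unless another tool, an alternative setting or a left-out library is named. Those of alternatives are adjusted over the genes tested there, and those of ratios over the 9 ratio tests. Standard errors are the log2 fold change divided by the root of the F statistic, and intervals use its degrees of freedom. Counting errors treat reads as independent, and reads were not marked by molecule. Positions and exon lengths are from GENCODE 29 (92.6% of identifiers matched). The fit was run on simulated data in which few genes changed, unlike after doxorubicin here, so that run does not test the scaling. Its outcome is not reported here. Alternatives were DESeq2 1.42.0, other scalings and filters, thinning to 17523920 counts, a replicate block, 2 groups at a time and leaving out each library. Ratios were tested in scipy 1.17.1. Log2 CPM for correlations used a prior count of 2.

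The 9 genes and the 7 lists were chosen with earlier results of these data known. Genes named outside the 9 are SLC3A2, up to 3 called members of each list by smallest p per comparison, and the 3 closest patterns to SLC7A11, GCLC and GCLM, and some of these are not reported here. NFE2L2 and DRAM1 were described further after their values were seen.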

Additional observations from a re-analysis of the deposited data

How the results depend on the processing

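With doxorubicin against control, 7 to 9 of the 9 genes were called under every alternative, and with both compounds against control 8 were. Over the 3 comparisons the 9 genes kept their direction and side of the threshold in 418 of the gene-level repeats, and 3 lost a call, GCLM and GSTP1 with library totals alone and GSR without doxorubicin replicate 4. With both compounds against doxorubicin the count of called genes was 0, and it was 2 with DESeq2, 1 with RLE size factors, 1 with every symbol summed and 0 to 1 when single libraries were left out. Values near 0 changed sign in 5 repeats. CHAC2 in that comparison went to 0.0011 without doxorubicin replicate 2 and 0.0034 without the library with both compounds numbered 2 (range from -0.17 with single libraries left out), and GGCT to -0.00015 without number 4 (range up to 0.12). GSR with both compounds against control went to -0.12 with library totals alone and -0.0040 without number 4 (range up to 0.066).

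With 1 library left out, the smallest exact p for a ratio is 0.0571, so none can pass. The log2 difference then ranged from -0.30 to -0.21 for GCLM to GCLC with doxorubicin, and from -0.24 to -0.16 with both compounds against control. It ranged from 1.36 to 1.61 and from 1.93 to 2.14 for CHAC1 to CHAC2 in these comparisons. For SLC7A11 to SLC3A2 it ranged from 0.48 to 0.68 against doxorubicin, from 0.43 to 0.66 with both compounds against control, and from -0.10 to 0.052 with doxorubicin against control, where it turned positive without control replicate 1.

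The replicate block left 9, 0 and 8 of the 9 genes called in the 3 comparisons and 502 genes called with ferrostatin-1 added, against 692 without it, and column numbers showed no pairing. Genes called in all were 8834, 692 and 8873. Without control replicate 1 all 9 genes were still called with doxorubicin. CHAC1 and CHAC2, at 66 to 243 counts per library, have the widest intervals.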

Other observations

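In control and with both compounds, replicates of a group differed in a direction that several of the 9 genes shared. Control replicate 1 had the highest SLC7A11 of its group (73.0 CPM against 63.9 to 67.0) and the lowest GSTP1 (313 against 362 to 391), GSS (54.9 against 58.3 to 63.3), GGCT (28.2 against 31.2 to 32.8) and CHAC1 (3.62 against 3.95 to 4.62). The library with both compounds numbered 3 also had the highest SLC7A11 of its group (138 against 107 to 130.4 CPM) and the lowest GSTP1 (429.8 against 462 to 476), GSS (86.5 against 90.6 to 97.9), GGCT (15.9 against 17.96 to 20.6) and CHAC1 (7.39 against 9.01 to 10.1). GCLC, GCLM, GSR and CHAC2 did not share this, being neither highest nor lowest of the group in either library. Among doxorubicin libraries the pattern held only in part. Replicate 1 there had the highest SLC7A11 (113 CPM) and the lowest GSTP1 (426 CPM) and GGCT (16.5 CPM). Its GSS (88.8 CPM) and CHAC1 (6.66 CPM) were not the lowest, while its GCLM (43.5 CPM) was. None of 36 groups of 4 values, from the 9 genes and 3 ratios, had a library past Dixon's limit.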
